A study of Danio rerio with 6 samples.

Results

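The glutathione genes of zebrafish liver were read here across offspring sired with fresh sperm and offspring sired with cryopreserved sperm. The genes were taken by symbol from the table of counts: symbols that start with gst or mgst, gpx followed by a digit, and gclc, gclm, gss and gsr, with gstcd left out. The rule gave 35 of 32520 rows: 17 cytosolic or mitochondrial glutathione transferases, 5 microsomal transferases, 9 glutathione peroxidases and 4 genes of synthesis and reduction.

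The study made 6 poly-A RNA-seq libraries of liver from wild-type fish of the AB strain, 3 labelled as controls from fresh sperm (fresh replicates 1 to 3) and 3 labelled as sperm cryopreservation (cryo replicates 1 to 3). The series title names long-term effects on offspring as its subject. All libraries carry a single batch label, and the labels give no age, no sex and no word on whether a library was 1 fish or a pool, so a p-value here speaks only of the variation among 6 libraries. Titles carry F for fresh and C for cryopreserved. The letters alone could mean the reverse (frozen, control), and every direction below rests on the treatment label. Because these are bulk livers, fewer cells of a type and less RNA per cell cannot be told apart.

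Glutathione is a tripeptide of glutamate, cysteine and glycine and the main soluble thiol of the cell. Glutamate-cysteine ligase (catalytic subunit GCLC, modifier subunit GCLM) makes the first bond, glutathione synthetase (GSS) adds glycine, and glutathione reductase (GSR) returns the oxidised form to the thiol. Transferases join glutathione to electrophilic compounds, a leading route by which liver disposes of drugs, toxins and lipid oxidation products, and peroxidases use it to reduce hydrogen peroxide and lipid peroxides.

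Total counts were 16885619 to 17606733 in fresh libraries, 16146121 in cryo replicate 1, and 8277183 and 10409786 in cryo replicates 2 and 3. Cryo replicates 2 and 3 stand apart: vitellogenin RNA, the yolk protein message of female liver, made up 17.4% and 12.4% of their counts and at most 6.04e-04% in any other library. Levels here and below are CPM: counts scaled to each library's total over the tested genes and normalised by the trimmed mean of M values (TMM). Of 8 vitellogenin rows 1 was tested, so these totals held 9.56% and 2.82% of the vitellogenin counts of cryo replicates 2 and 3. Of the liver markers, 7 of 8 hepatocyte genes had a row under their symbol, and their summed level was 100800 to 123400 CPM in fresh and 125500 to 201900 in cryo libraries. Sums of 13 genes for exocrine pancreas ran from 293 to 567 CPM in fresh and from 1264 to 3891 CPM in cryo libraries. The 12 macrophage genes summed to 269 to 1536 CPM in fresh and 1685 to 2316 CPM in cryo libraries. At an edgeR adjusted p under 0.05, 8 of 13 tested pancreas genes and 4 of 9 tested macrophage genes were higher, against 1.02% of all tested genes. Sums for bile duct markers (3 genes, epcam at 0 throughout) were 505 to 636 CPM and 765 to 1130 CPM, and those for kidney (2 genes) 7.11 to 8.66 CPM and 10.8 to 21.1 CPM. The sums of red blood cell genes (2 genes, alas2 at 0 throughout; 62.7 to 89.0 and 75.4 to 196 CPM), islet genes (0.176 to 3.43 and 0.142 to 68.0 CPM) and neutrophil genes (0.545 to 1.35 and 0.666 to 5.96 CPM) overlapped between groups. Gut genes (at most 3.66 CPM, FABP6 at 0 throughout) and muscle genes (at most 0.259 CPM) were at or near 0 in every library. What part these cell types had in the results below was not tested, except where a value is given.

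Of the 35 genes, 23 had enough counts to be tested. In the cryopreserved sperm group the transferase gene gstt1b and the plasma peroxidase gene gpx3 fell and the cytosolic peroxidase gene gpx1a rose, 3 of 23 genes past an adjusted p of 0.05 in edgeR's quasi-likelihood test, adjusted over all 12674 tested genes. Over all tested genes 1.98% passed, 0.963% lower and 1.02% higher. The fit that kept only cryo replicate 1 of its group, with all of the spread taken from fresh libraries, called gstt1b and gpx1a, 2 of 25 genes tested (0.772% of all). Without cryo replicate 1 it was 7 of 25 (6.6% of all), and DESeq2 called 5 of 28 (7.28% of all). The remaining 20 of the 23 did not pass in edgeR, and most of them had negative changes. In all 18 of 23 were below 0, against 49.9% of all tested genes, with a median log2 change of -0.54 beside 0.0015 over all genes. That median was the value of gpx1b, a gene of wide spread. The lean was smaller where more low genes were kept. Without the low-count filter 20 of 33 were below 0, against 46.2% of all genes, and by DESeq2 17 of 28, against 46.2%. The 2 groups of libraries did not overlap for 11 of the 23 genes, 8 lower and 3 higher in the cryopreserved sperm group, where all tested genes gave 24.6% (13.4% lower, 11.2% higher). The median shift of the 23 genes from the fresh mean was -0.33, -0.30 and -0.45 on the log2 scale in cryo replicates 1, 2 and 3, where the median over all tested genes was -0.046, -0.0031 and -0.036.

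**Figure D1:**
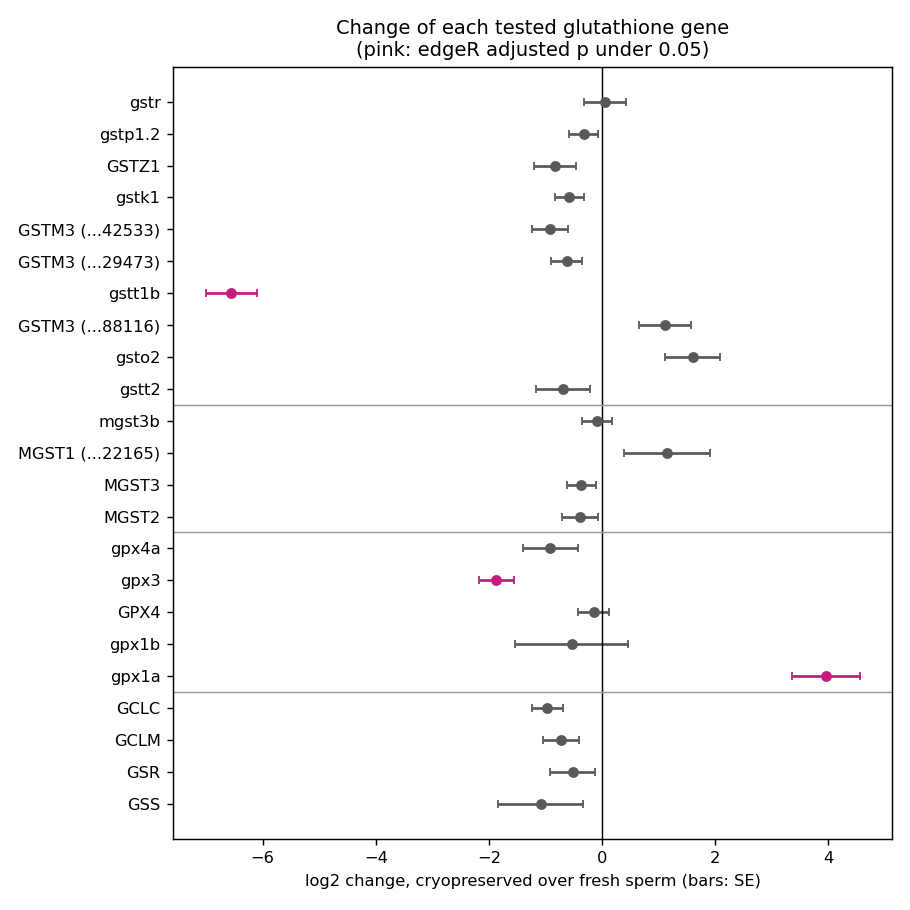
Log2 change of each of the 23 tested genes, cryopreserved over fresh sperm, with its standard error, ordered by family (transferases, microsomal transferases, peroxidases, synthesis and reduction). The pink points, gstt1b at -6.55, gpx3 at -1.87 and gpx1a at 3.95, passed the edgeR threshold.

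**Figure D2:**
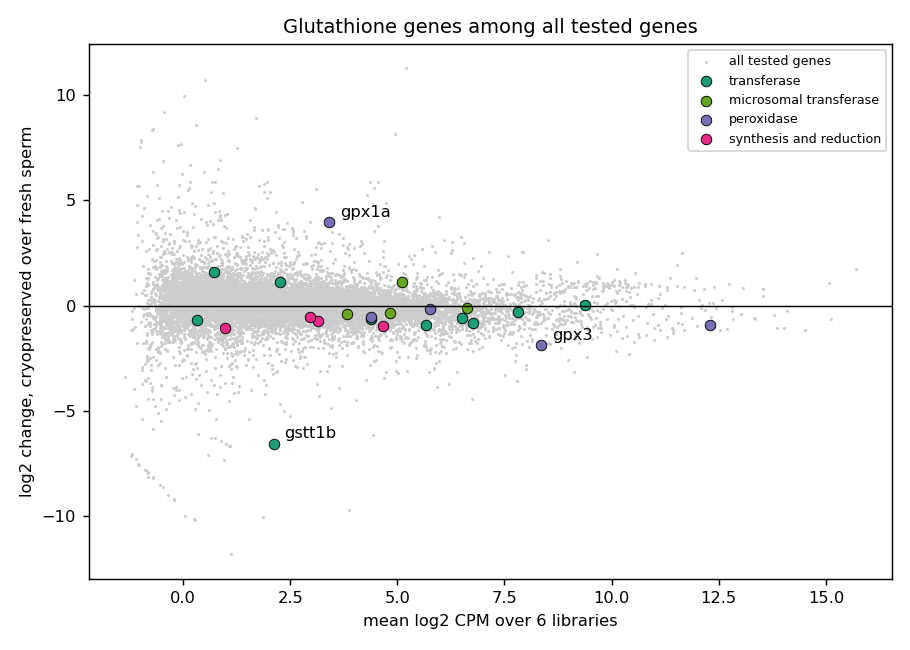
Log2 change against mean log2 CPM over the 6 libraries, with all 12674 tested genes in grey and the 23 glutathione genes coloured by family. The 3 coloured points with names passed the threshold.

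Among the transferases, gstt1b was nearly silent in the cryopreserved sperm group. This gene encodes a theta-class transferase, a class known in mammals for acting on small halogenated compounds. It had 606, 923 and 505 counts in fresh replicates 1 to 3 and 7, 1 and 5 counts in cryo replicates 1 to 3. In CPM these were 35.6, 50.3 and 30.2 against 0.453, 0.142 and 0.555. Every fresh library was thus far above every cryo library, including cryo replicate 1, which held almost no vitellogenin RNA. The mean fell from 38.7 ± 10.4 to 0.383 ± 0.215 CPM (SD, n = 3 each), a log2 change of -6.55 ± 0.45 (SE; edgeR adjusted p = 0.00182). The ratio of summed counts, scaled by library size, was 94.7 with a 95% counting interval of 55.2 to 178, which covers counting error only. The call of gstt1b held in all 16 alternatives tried, with log2 changes from -6.84 to -6.22, and in the fit that kept only cryo replicate 1 of its group it was -6.36 (adjusted p = 0.0308).

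Of the other theta-class genes, gstt1a had no count in any library. The gene gstt2 had 1.41, 1.52 and 1.38 CPM in fresh and 0.518, 0.993 and 1.22 CPM in cryo replicates 1 to 3. Its groups did not overlap, at a log2 change of -0.69 ± 0.48 that did not pass (adjusted p = 0.49).

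The transferase gene with the most counts was gstr, of the rho class found in fish. It had 553, 802 and 685 CPM in fresh and 1038, 622 and 454 CPM in cryo replicates 1 to 3. Cryo replicate 1 was above and cryo replicate 3 below every fresh library, and the log2 change was 0.05 ± 0.38 (adjusted p = 0.963). Counts are not divided by transcript length here, so this and similar statements rank counts and not transcript numbers. The pi-class gene gstp1.2 had 250, 296 and 215 CPM in fresh and 189, 228 and 191 CPM in cryo libraries, with a log2 change of -0.32 ± 0.26 (adjusted p = 0.551). Its neighbour gstp1.1, the next coding gene in the GRCz12tu assembly, had a single count in all 6 libraries.

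GSTZ1 and gstk1 did not pass. GSTZ1, the zeta-class transferase that also serves as an isomerase in tyrosine breakdown, had 117, 157 and 176 CPM in fresh libraries. In cryo replicates 1 to 3 it had 123, 77.8 and 51.2 CPM, so cryo replicate 1 lay within the fresh range and the other cryo libraries below it. Its log2 change was -0.83 ± 0.36 (adjusted p = 0.272), and -0.24 in the fit that kept only cryo replicate 1 of its group. The kappa-class gene gstk1, whose mammalian product is found in mitochondria and peroxisomes, had 118, 100 and 118 CPM in fresh and 94.3, 60.9 and 69.8 CPM in cryo libraries. The groups of gstk1 did not overlap, at a log2 change of -0.58 ± 0.26 (adjusted p = 0.286), or -0.21 with cryo replicate 1 alone.

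The symbol GSTM3, of a mu-class transferase, stands at 3 rows, none of them past the threshold. ENSDARG00000042533 had 71.9, 67.6 and 75.5 CPM in fresh and 54.9, 32.4 and 25.9 CPM in cryo replicates 1 to 3, a log2 change of -0.92 ± 0.31 (adjusted p = 0.17). It passed only without cryo replicate 1 among the alternatives, at -1.29 (adjusted p = 0.0294). ENSDARG00000029473 had 27.6, 27.0 and 24.5 CPM in fresh and 17.3, 11.9 and 21.8 CPM in cryo libraries, with no overlap and -0.63 ± 0.27 (adjusted p = 0.272). ENSDARG00000088116 lay the other way, with 3.29, 2.07 and 4.85 CPM in fresh and 11.3, 5.11 and 5.44 CPM in cryo libraries, and its change of 1.11 ± 0.45 did not pass either (adjusted p = 0.246). Reads of near-identical copies may be shared among rows with the same symbol, which makes each of these 3 values uncertain.

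The omega-class genes, whose products act as thiol transferases and reductases more than as conjugating enzymes, had their higher values in the cryopreserved sperm group without a call. The gene gsto2 had 0.941, 0.599 and 1.08 CPM in fresh and 1.55, 3.55 and 2.997 CPM in cryo libraries, without overlap. Its log2 change was 1.60 ± 0.48 (adjusted p = 0.133), and 0.87 in the fit that kept only cryo replicate 1 of its group. Its neighbour gsto1 stayed under the filter on low counts, with 1, 1 and 0 counts in fresh and 2, 14 and 7 counts in cryo replicates 1 to 3. Most of these counts came from the libraries with vitellogenin RNA. The ratio of its summed counts was 19 with a counting interval of 4.7 to 166, and DESeq2, which keeps more low genes, put it past the threshold (adjusted p = 0.0412), as did edgeR without cryo replicate 1 (adjusted p = 0.0312).

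Microsomal transferases, membrane enzymes that conjugate and also reduce lipid peroxides, gave no call by edgeR among 4 tested genes, with none at an unadjusted p under 0.05 and none by DESeq2. Over all tested genes 18.5% had an unadjusted edgeR p under 0.05, and DESeq2 called 7.28%. MGST1 (ENSDARG00000022165) had 39.5, 22.4 and 26.7 CPM in fresh replicates 1 to 3. In cryo replicate 1 it was at 7.76 CPM, below every fresh library, and in cryo replicates 2 and 3 at 88.1 and 99.9 CPM, above every fresh library. The 12.9-fold range within the cryopreserved sperm group was exceeded by 4.45% of tested genes. The log2 change was 1.14 ± 0.76 (adjusted p = 0.472), 1.68 without cryo replicate 1 (adjusted p = 0.0244) and -1.88 in the fit that kept only cryo replicate 1 of its group (adjusted p = 0.133). The libraries with high MGST1 were thus those with vitellogenin RNA, whose part in this result was not tested.

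Libraries lay closer together for the other microsomal genes. Levels of mgst3b were 96.2, 92.6 and 122 CPM in fresh and 115, 101 and 74.3 CPM in cryo libraries, with a log2 change of -0.10 ± 0.27. MGST3 and MGST2 had -0.37 ± 0.26 and -0.39 ± 0.32, with overlapping groups and adjusted p of 0.499 and 0.567. A second row listed as MGST1 (ENSDARG00000032618) was under the filter, with 19 counts in the fresh and 32 in the cryo libraries.

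**Figure D3:**
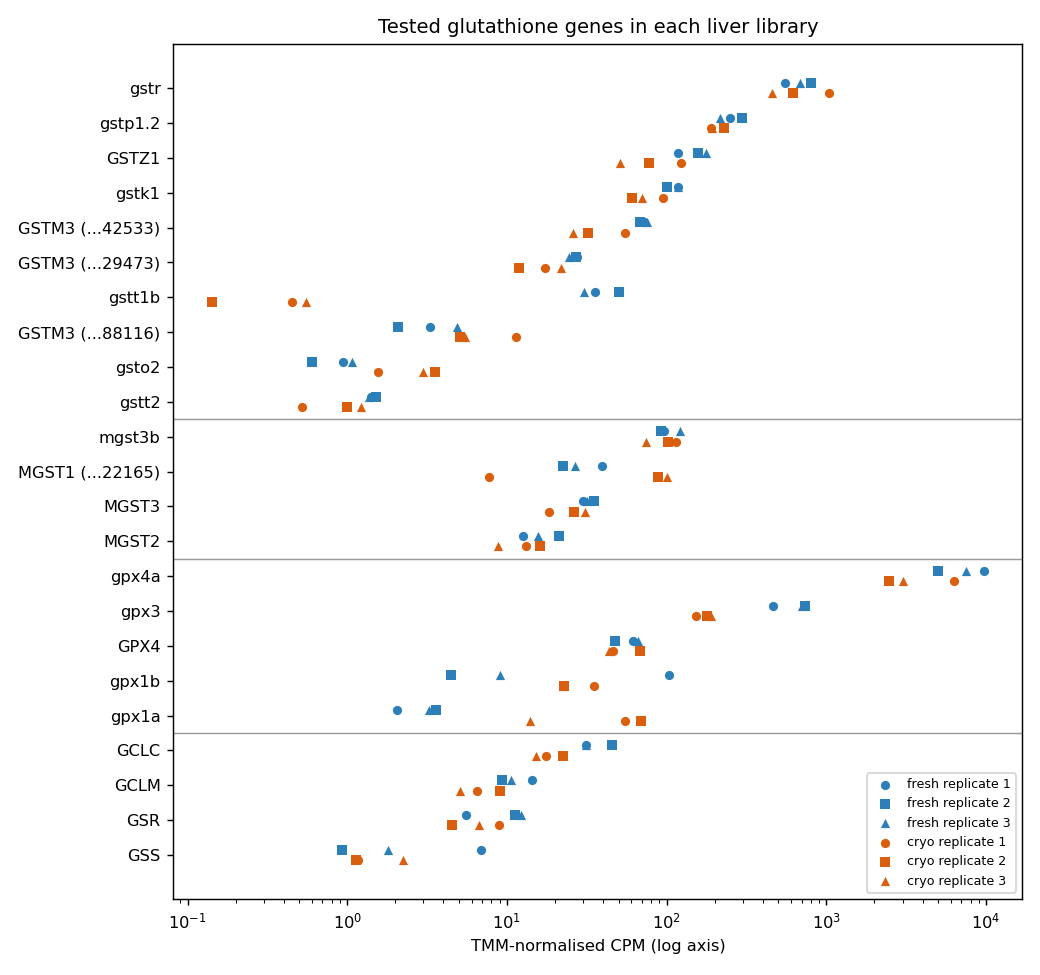
TMM-normalised CPM of the 23 tested genes in each of the 6 libraries on a log axis, fresh in blue and cryo in orange, with the marker shape giving the replicate; lines separate the families. For gstt1b, gpx3 and gpx1a the colours stand clear of each other, and for MGST1 (ENSDARG00000022165) the cryo circle lies below and the cryo square and triangle above the fresh points.

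Of the 5 tested peroxidase genes gpx3 fell and gpx1a rose. The enzymes of the gpx1, gpx3 and gpx4 genes are selenoproteins: gpx1 reduces hydrogen peroxide in the cytosol, gpx3 is secreted into plasma, and gpx4 reduces lipid peroxides in membranes and guards against ferroptosis.

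The gene gpx3 had 462, 740 and 704 CPM in fresh replicates 1 to 3 and 153, 179 and 190 CPM in cryo replicates 1 to 3. The lowest fresh library was thus above the highest cryo library, and the cryo libraries lay close together, within 1.24-fold. The mean fell from 635 ± 151 to 174 ± 19.0 CPM (SD, n = 3 each), a log2 change of -1.87 ± 0.30 (edgeR adjusted p = 0.0284). In size the change was alike in each fit, between -2.02 and -1.70 over 16 alternatives. The call itself was not so steady: it was lost without any 1 of fresh replicates 1, 2 and 3 (adjusted p = 0.0633, 0.118 and 0.156) or cryo replicates 2 and 3 (0.0685 and 0.0829), and in the fit that kept only cryo replicate 1 of its group (-2.02, adjusted p = 0.0977).

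In the opposite direction, levels of gpx1a were 2.06, 3.59 and 3.23 CPM in fresh replicates 1 to 3 and 54.5, 69.5 and 13.9 CPM in cryo replicates 1 to 3. Every cryo library was above every fresh one, with cryo replicate 3 nearest to them. The log2 change was 3.95 ± 0.60 (edgeR adjusted p = 0.0248), from 2.96 ± 0.803 to 46.0 ± 28.8 CPM (SD, n = 3 each). It was 4.24 in the fit that kept only cryo replicate 1 of its group (adjusted p = 0.0238), and the call was lost without any 1 of fresh replicates 1, 2 and 3 (adjusted p = 0.09, 0.0947 and 0.11) or cryo replicate 2 (0.0505), at log2 changes from 3.58 to 4.16.

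The second copy, gpx1b, had the widest range of the 23 genes within the fresh group. It had 104 CPM in fresh replicate 1 against 4.47 and 9.09 CPM in fresh replicates 2 and 3, a 23.3-fold range that 1.51% of tested genes exceeded. The cryo libraries lay between, at 35.3, 22.8 and 22.4 CPM. The log2 change of -0.54 ± 1.001 (adjusted p = 0.823) turned to 2.04 without fresh replicate 1 (adjusted p = 0.106). Both copies together gave 106, 8.06 and 12.3 CPM in fresh and 89.8, 92.4 and 36.3 CPM in cryo libraries, so that fresh replicate 1 was above all and the other fresh libraries below all cryo libraries.

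Of the counts on the pair, gpx1a took 1.94% in fresh replicate 1 (Wilson 95% interval 1.4 to 2.69), 44.6% in fresh replicate 2 (36.8 to 52.6) and 26.2% in fresh replicate 3 (20.7 to 32.6). In cryo replicates 1 to 3 it took 60.7% (58.1 to 63.2), 75.3% (71.8 to 78.4) and 38.2% (33.1 to 43.6). The shares of the groups overlapped through fresh replicate 2 and cryo replicate 3, and these intervals cover counting error only.

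The 12 macrophage genes summed to 1536, 269 and 364 CPM in fresh replicates 1 to 3 and to 2069, 2316 and 1685 CPM in cryo replicates 1 to 3. Like gpx1a, the sum was higher in every cryo library than in any fresh one, and within the cryopreserved sperm group both were highest in cryo replicate 2 and lowest in cryo replicate 3. Within the fresh group replicate 1 was the highest in this sum and in gpx1b, while gpx1a in that library was at 2.06 CPM, the lowest of all. The pancreas sums, also higher in all cryo libraries, were 3054, 1264 and 3891 CPM there, with the lowest in cryo replicate 2, where gpx1a was highest. Kidney sums were 7.11, 8.66 and 8.02 CPM in fresh and 18.3, 21.1 and 10.8 CPM in cryo replicates 1 to 3. They ranked all 6 libraries in the same order as gpx1a. Neutrophil sums overlapped between groups. They were 4.66, 5.96 and 0.666 CPM in cryo replicates 1 to 3, in the order of gpx1a there. In fresh replicates 1 to 3 they were 1.35, 0.545 and 1.26 CPM, the reverse of the order of gpx1a. Bile duct sums, also higher in all cryo libraries, were 1130, 985 and 765 CPM there, with the highest in cryo replicate 1. The same held for hepatocyte sums. These were 123400, 100800 and 111000 CPM in fresh and 201900, 134200 and 125500 CPM in cryo replicates 1 to 3. The part of any of these cell types in the peroxidase values was not tested.

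**Figure D4:**
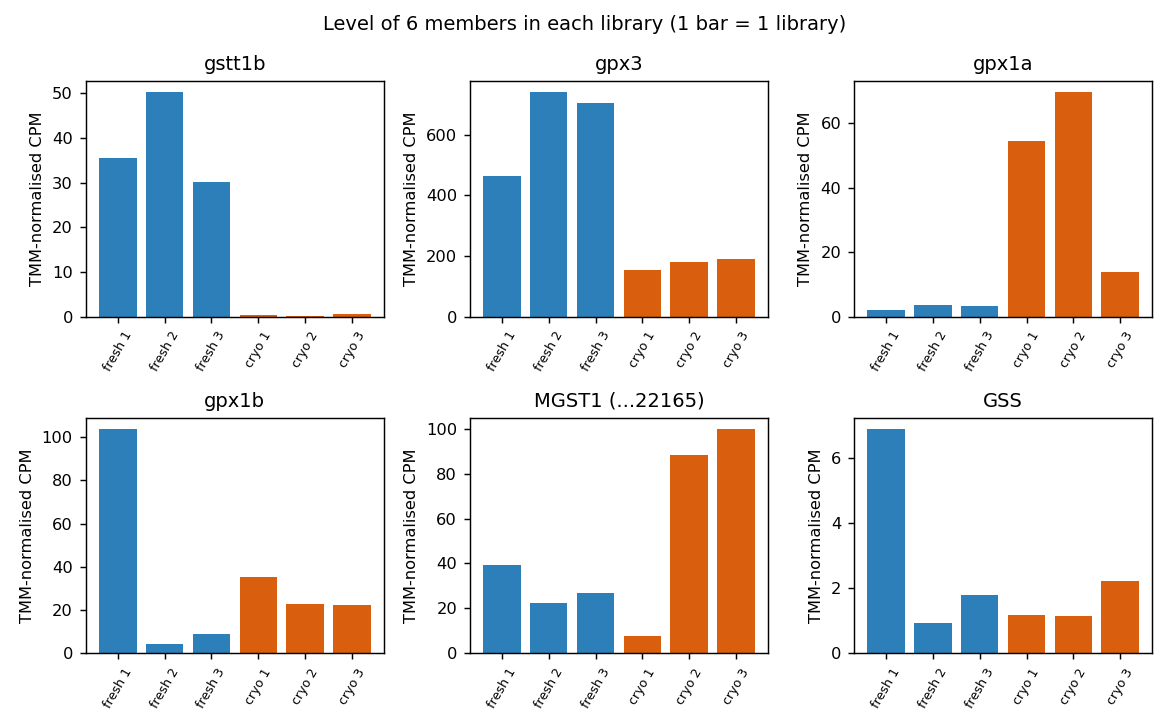
TMM-normalised CPM of gstt1b, gpx3, gpx1a, gpx1b, MGST1 (ENSDARG00000022165) and GSS, with 1 bar for each library and axes that start at 0. Bars of the 2 groups do not overlap for gstt1b, gpx3 and gpx1a, while gpx1b and GSS have a single high bar in fresh replicate 1 and MGST1 has its highest bars in cryo replicates 2 and 3.

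The gene gpx4a took most peroxidase counts, from 86.2% (fresh replicate 2, Wilson interval 86.0 to 86.4) to 95.6% (cryo replicate 1, 95.5 to 95.7). It had 9679, 4983 and 7534 CPM in fresh and 6261, 2482 and 2996 CPM in cryo replicates 1 to 3. Cryo replicate 1 lay within the fresh range, and the libraries with vitellogenin RNA lay below it. The log2 change of -0.92 ± 0.49 did not pass (adjusted p = 0.363). Without cryo replicate 1 it was -1.42 (adjusted p = 0.0492), and in the fit that kept only that library of its group -0.20 (adjusted p = 0.821). The row listed as GPX4 (ENSDARG00000076836) had 61.4, 47.5 and 65.9 CPM in fresh and 45.8, 68.5 and 43.6 CPM in cryo libraries, overlapping, at -0.15 ± 0.27 (adjusted p = 0.823).

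Peroxidase genes other than gpx4a summed to 629, 795 and 782 CPM in fresh and 289, 340 and 270 CPM in cryo replicates 1 to 3, sums in which gpx3 was the largest term in every library. GPX8, GPX7, gpx2 and gpx9 were not tested. GPX8 had 5 counts in the fresh and 15 in the cryo libraries, GPX7 and gpx2 had 1 count each in all, and gpx9 had none.

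The genes of synthesis and reduction were all negative, where 49.9% of all tested genes were. None of the 4 passed in edgeR, and 1 (GCLC) had an unadjusted p under 0.05, against 18.5% of all tested genes. The same gene was past the threshold in DESeq2, which called 7.28% of all. GCLC had 31.4, 45.5 and 31.4 CPM in fresh and 17.6, 22.6 and 15.2 CPM in cryo replicates 1 to 3. The groups did not overlap, and the mean was 36.1 ± 8.14 against 18.5 ± 3.75 CPM (SD, n = 3 each), a log2 change of -0.97 ± 0.27 (edgeR adjusted p = 0.111; DESeq2 adjusted p = 0.0495). Its log2 change lay between -1.09 and -0.72 in all 16 alternatives and was -0.997 in the fit that kept only cryo replicate 1 of its group.

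GCLM, the modifier subunit of the same ligase, had 14.4, 9.31 and 10.5 CPM in fresh and 6.53, 9.08 and 5.11 CPM in cryo libraries. The groups were separate by a narrow margin, between fresh replicate 2 and cryo replicate 2, and the change was -0.73 ± 0.32 (adjusted p = 0.275). GSS had 6.88 CPM in fresh replicate 1 and 0.926 and 1.80 CPM in the other fresh libraries. In the cryo libraries it had 1.16, 1.14 and 2.22 CPM, and its change of -1.09 ± 0.75 turned to 0.20 without fresh replicate 1, the library in which gpx1b was also high. GSR had 5.53, 11.2 and 12.3 CPM in fresh and 8.86, 4.54 and 6.66 CPM in cryo libraries, overlapping, at -0.52 ± 0.39 (adjusted p = 0.53).

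Summed over each family, the levels of the 4 synthesis and reduction genes were 58.2, 66.9 and 56.0 CPM in fresh and 34.2, 37.3 and 29.2 CPM in cryo replicates 1 to 3, without overlap. All transferases together, microsomal ones included, had 1358, 1677 and 1528 CPM in fresh and 1688, 1278 and 1042 CPM in cryo libraries, which overlapped. The peroxidases summed to 10310, 5778 and 8316 CPM in fresh and 6550, 2822 and 3266 CPM in cryo replicates 1 to 3, which also overlapped. GCLC, gstr and gpx4a were the largest terms of these sums, which carry no test.

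Within a group the 23 genes varied about as much as other genes did. The median ratio of the highest to the lowest library was 1.55 within the fresh group for them and for all tested genes alike, and 1.95 against 1.96 within the cryopreserved sperm group. The steadiest in the fresh group were gstt2 and GSTM3 (ENSDARG00000042533), at 1.11 and 1.12, and the least steady gpx1b and GSS, at 23.3 and 7.43. In the cryopreserved sperm group gstp1.2 and gpx3 were the steadiest, at 1.21 and 1.24, and MGST1 (ENSDARG00000022165) and gpx1a the least, at 12.9 and 5.01.

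In all 12 of the 35 genes were too low to test. Of these gpx9 and gstt1a had no count, gpx2, GPX7, gsta.2 and gstp1.1 had 1 count each, and the other 6 had at most 51 counts over all libraries. The alpha-class gene gsta.1 had 3, 7 and 2 counts in fresh and 8, 6 and 24 counts in cryo replicates 1 to 3, so its raw counts overlapped while its CPM (0.120 to 0.381 against 0.518 to 2.66) did not. The ratio of its summed counts was 5.23 with a counting interval of 2.68 to 11. The kappa-class genes gstk2 and gstk4 had 16 and 18 counts in all.

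Around these enzymes, 76 genes that supply, recycle, export or control glutathione were read from a list of 60 symbols, of which 59 had a row. Of 60 genes tested in edgeR, 2 fell and none rose, where 0.963% and 1.02% of all tested genes did. At an unadjusted p under 0.05 there were 21, against 18.5% of all tested genes. DESeq2 called 11 of 66, against 7.28% of all, among them SLC3A2 and ANPEP (ENSDARG00000103878) upward. In all 43 of the 60 were negative, with a median of -0.33. OPLAH, the 5-oxoprolinase that returns glutamate from broken-down glutathione, had 59.9, 31.4 and 82.2 CPM in fresh and 6.79, 10.5 and 11.4 CPM in cryo replicates 1 to 3. Its groups were well apart, at a log2 change of -2.60 ± 0.41 (edgeR adjusted p = 0.0251). ACY1 (ENSDARG00000038475), an aminoacylase that removes acetyl groups from amino acids such as the cysteine of mercapturates, had 266, 170 and 245 CPM in fresh and 84.6, 70.2 and 83.0 CPM in cryo libraries, a change of -1.52 ± 0.28 (adjusted p = 0.0407). When cryo replicate 1 alone stood for its group neither passed, at -3.05 for OPLAH (adjusted p = 0.115) and -1.38 for ACY1 (adjusted p = 0.154). OPLAH passed in 10 and this ACY1 row in 9 of 16 alternatives. A second ACY1 row (ENSDARG00000111129) lay the other way. It had 2.70, 3.05 and 2.93 CPM in fresh and 4.40, 4.26 and 5.66 CPM in cryo libraries. Its groups did not overlap, and its log2 change of 0.72 ± 0.30 did not pass (adjusted p = 0.256).

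Next by p-value in this list, none past the threshold, were ME1, ANPEP, MAT1A and MAFK. ME1, the malic enzyme that yields NADPH for reducing glutathione, had 552, 546 and 976 CPM in fresh and 62.8, 2.41 and 31.3 CPM in cryo replicates 1 to 3. The groups were far apart, but the cryo libraries differed widely among themselves (-4.42 ± 0.99, adjusted p = 0.0684). MAT1A, the liver enzyme that makes S-adenosylmethionine, the start of the route from methionine to cysteine, had 1294, 924 and 1393 CPM in fresh and 594, 192 and 255 CPM in cryo libraries (-1.79 ± 0.47, adjusted p = 0.0992). ANPEP (ENSDARG00000103878), an aminopeptidase that can act on the dipeptide left when glutathione is broken down, had 3.41, 2.78 and 2.33 CPM in fresh and 5.95, 7.38 and 6.99 CPM in cryo libraries (1.25 ± 0.30, adjusted p = 0.079). MAFK, a small partner of the transcription factor Nrf2, had 3.998, 2.504 and 5.503 CPM in fresh and 0.582, 1.703 and 0.888 CPM in cryo libraries (-1.97 ± 0.52, adjusted p = 0.1). Groups did not overlap for MAFK or for ANPEP (ENSDARG00000103878). A second tested ANPEP row (ENSDARG00000097285) had more counts and did not rise. It had 18.5, 19.8 and 17.3 CPM in fresh and 6.40, 22.1 and 20.4 CPM in cryo libraries. Its groups overlapped, at -0.19 ± 0.43 (adjusted p = 0.861).

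By role, cysteine supply had 10 negative genes of 11 tested and a median of -1.43. None passed in edgeR, while 8 had an unadjusted edgeR p under 0.05, against 18.5% of all tested genes. DESeq2, which tested 12, called 5 lower and 1 higher, against 7.28% of all. The exception was SLC3A2, a subunit of amino acid carriers, at 2.37 ± 0.78 (adjusted p = 0.158), chosen for mention after its values were seen. It had 3.94, 1.63 and 4.61 CPM in fresh, 2.78 CPM in cryo replicate 1 and 26.5 and 23.9 CPM in cryo replicates 2 and 3. The copy slc3a2a was at -0.33 ± 0.66 (adjusted p = 0.836). It had 5.53, 9.365 and 12.4 CPM in fresh and 15.3, 2.55 and 3.44 CPM in cryo replicates 1 to 3. The gene slc7a11 of the same list was not tested, with 14 counts in the fresh and 9 in the cryo libraries. The cryo libraries differed in other genes too. GNMT had 446, 360 and 459.5 CPM in fresh and 293, 83.6 and 91.8 CPM in cryo replicates 1 to 3. CTH (ENSDARG00000074301) had 77.8, 60.8 and 73.2 CPM in fresh and 39.4, 4.82 and 7.44 CPM in cryo libraries. The other CTH row (ENSDARG00000032206) was at -3.83 ± 1.11 (adjusted p = 0.12), with 0 counts in cryo replicates 2 and 3. MAT1A was at -0.98 with cryo replicate 1 alone and -2.42 without it. AHCY (3253, 4787 and 4918 CPM in cryo replicates 1 to 3) and MAT2A (ENSDARG00000040334, at 20.1, 351 and 110 CPM there) were instead lowest in cryo replicate 1. The other MAT2A row (ENSDARG00000037121) was at -1.72 ± 0.52 (adjusted p = 0.132), with overlapping groups. Transcription control had 8 of 8 negative with a median of -0.43, among them NFE2L2, a gene of Nrf2, at -0.37 ± 0.37 (adjusted p = 0.647). The copy nfe2l2b was at -1.73 ± 0.72 (adjusted p = 0.25), with overlapping groups. It had 13.9, 3.65 and 2.69 CPM in fresh and 3.23, 1.70 and 0.999 CPM in cryo replicates 1 to 3. Also in this list was keap1a, at -0.87 ± 0.33 (adjusted p = 0.217), with groups that did not overlap. The row listed as KEAP1 was at -0.035 ± 0.34 (adjusted p = 0.974), with overlapping groups. The list mixes genes that act for and against Nrf2, so their shared sign gives no direction of control. The medians were -0.41 for 9 glutaredoxin and thioredoxin genes, -0.29 for 7 genes of conjugate export and mercapturates, -0.19 for 7 of the glutamyl cycle, -0.16 for 8 of NADPH supply, -0.07 for 4 of glyoxalase and S-glutathione hydrolysis and 0.0066 for 6 of selenium supply.

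**Figure D5:**
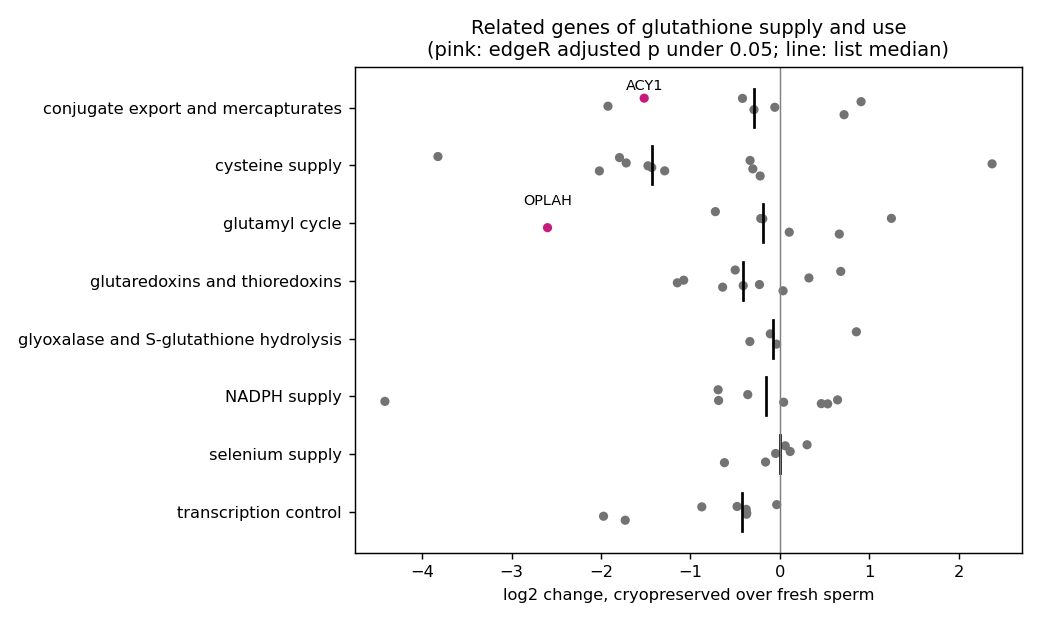
Log2 change, cryopreserved over fresh sperm, of the 60 tested related genes by role, with 1 point for each gene, a line at the median of each list and points spread vertically for visibility. OPLAH at -2.60 and ACY1 (ENSDARG00000038475) at -1.52, in pink, passed the edgeR threshold, and the cysteine supply list has its median at -1.43.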

How the data were processed

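The authors deposited raw counts per gene, whole numbers with no scaling recorded. Per the file headers they were made from HISAT2 alignments, and per the submitters' processing notes on GRCz11 (danRer11). Sources used here name no counting tool, strand setting or annotation release, so overlapping, antisense and near-identical genes cannot be told apart. Symbols came from a table that named 29201 of 32520 rows, and gene neighbours from RefSeq's GRCz12tu table, in which 28 of the 35 genes matched by symbol. No sequences were used here.

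Of 21810 genes with a count, 12674 passed filterByExpr and were fitted by edgeR 4.0.16 (R 4.3.3): TMM, a quasi-likelihood test of group, two-sided, Benjamini-Hochberg adjustment over all of them, threshold 0.05. CPM divide a count by the library's total over the tested genes multiplied by its TMM factor. The SE is the log2 change over the square root of F. The biological coefficient of variation was 0.413. Alternatives used DESeq2 1.42.0 and limma 3.58.1. A simulation of this comparison (12367 genes, 3 libraries a group) planted changes only in genes with a mean CPM of at least 5. By edgeR, changes of 1, 2, 3 and 5 on the log2 scale were recovered in 0%, 54%, 96% and 100% of 50 cases each. Planted changes of 1 were thus not recovered at those levels, and genes of lower level were not covered. The simulation gave 133 calls where the data gave 251, so recovery in the data may differ. In the data the smallest change called was 1.24 in size on the log2 scale. No libraries of a group agreed within sampling noise (chi-square per degree of freedom 48 to 389.9).

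The genes and lists were chosen with earlier results of these data known. Values by library are given for called genes, genes without overlap and a log2 size of at least 1, the 10 with most counts, the synthesis genes, the gpx1 and gpx4 copies and the 5 uncalled genes of smallest p. In the related list they cover called genes and the 6 of smallest p. Values of some others were added for context. Figures were drawn with matplotlib 3.10.9.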

Additional observations from a re-analysis of the deposited data

How the results depend on the processing

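Of 23 tested genes 3 passed, and the same 3 did so with RLE or upper-quartile factors, without the low-count filter, with at least 1 CPM in 3 libraries, by limma-voom, after thinning to the shallowest library and without the most abundant genes. DESeq2 called 5. Leaving out 1 library gave 1 to 7, with gstt1b among them each time, and 7 without cryo replicate 1. All genes past the threshold numbered 251, and 705 without the filter, 1154 by DESeq2, 109 with cryo replicate 1 alone (its spread then taken from the fresh libraries), 721 at a threshold of 0.1, and 32 to 873 with 1 library left out. The median of -0.54 over tested glutathione genes was -0.43 with upper-quartile factors and by limma-voom, -0.37 without the filter, -0.34 by DESeq2, -0.30 with cryo replicate 1 alone and -0.50 to -0.36 with 1 library left out. The number of these genes tested ran from 22 to 33 over the settings. Related genes past the threshold, recounted under settings added after the data were seen, were 2, and 4 without the filter, 11 by DESeq2, 0 with cryo replicate 1 alone and 0 to 12 with 1 library left out. Signs reversed for 5 genes, none of them among the 3 that passed with all libraries. For mgst3b the log2 change was -0.23 to 0.089 with 1 library left out and 0.19 with cryo replicate 1 alone, positive without fresh replicate 3 (0.081) or cryo replicate 3. MGST1 (ENSDARG00000022165) had -1.88 with cryo replicate 1 alone. The gene gpx1b had 0.71 by limma-voom, 0.75 with the replicate block and -1.03 to 2.04 with 1 library left out, positive without fresh replicate 1. GSS had -1.48 to 0.20, again positive without fresh replicate 1, and gstr had -0.035 by limma-voom, -0.025 with the block and -0.33 to 0.32 with 1 library left out, negative without fresh replicate 1 or cryo replicate 1. The cause of these differences was not tested.

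The replicate number as a block gave 1 of the 23 genes (gstt1b), 0 related genes and 33 of all genes. Deviations of same-numbered libraries had correlations of -0.065, -0.13 and 0.058 for numbers 1, 2 and 3. Those of differently numbered pairs ran from -0.109 to 0.161. With 3 libraries a group, these values cannot decide whether same-numbered libraries were paired. The 12 genes not tested had at most 51 counts each over all libraries.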
